A study of Rattus norvegicus with 4 samples.

Results

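The Affymetrix rat gene 1.0 ST array carries probe sets for the stem-loop precursors of microRNAs, and these were followed through forskolin treatment of INS-1 insulinoma cells. They were picked by their deposited descriptions, which either name a miRBase stem-loop or give an Ensembl transcript of the miRNA class. The description picked 357 of 29214 probe sets. A pair of probe sets for a single Ensembl entry on chromosome 17 had identical signals on all 4 arrays and was counted once, which left 356 precursors. Of these, 246 were miRBase stem-loops and 110 were Ensembl entries without a microRNA name in the deposited annotation. The Ensembl entries are given here by position in the rat genome build RGSC3.4.

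MicroRNAs are short RNAs cut from longer transcripts. Drosha and Dgcr8 release a hairpin precursor in the nucleus, exportin-5 carries it out, Dicer1 trims it, and one strand is loaded into an Argonaute protein, which it guides to messenger RNAs mainly through its seed. Many precursors lie within introns of protein-coding genes or are cut several at a time from a shared transcript. In beta cells miR-375 is known for restraining insulin secretion and supporting beta-cell mass, and the miR-212 and miR-132 pair is a known target of the cAMP-responsive factor CREB in neurons. The array reports RNA that contains the precursor sequence and does not separate the hairpin from its longer transcript. Mature microRNAs were not analysed here.

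INS-1 is an insulin-secreting line from an insulinoma of NEDH rats, grown in RPMI medium with serum. The 4 groups were forskolin at 10 µM for 2 h, the solvent DMSO (vehicle) for 2 h, forskolin at 10 µM for 16 h, and vehicle for 16 h. Forskolin activates adenylyl cyclase and so raises cAMP. Total RNA was extracted with Trizol, cleaned on a column, labelled with biotin and hybridised to 1 array per group, so no difference within a time point can be checked against replicates, and none is given a p-value. As RNA of a whole culture was measured, fewer cells with a transcript and less of it per cell cannot be told apart. Of 6 measured beta-cell markers, 4 were bright: Ins1 averaged 13.26, Ins2 12.17, Slc30a8 11.60 and Iapp 11.49 on the log2 scale over the 4 arrays. Mafa averaged 6.88, with forskolin minus vehicle differences of 1.31 at 2 h and -0.52 at 16 h. Nkx6-1 averaged 4.55, with -1.59 at 2 h and -0.83 at 16 h, and was above background on the vehicle arrays only. Background here is the upper quartile of the array's negative controls. Of 13 measured markers of other cell types, 11 were at background on every array. The exceptions were Gcg, the glucagon gene, which averaged 12.07, and Col1a1, which averaged 4.54 and was just above background on 2 arrays. Signals correlated between arrays with Pearson coefficients of 0.973 to 0.982 across precursors, against 0.986 to 0.994 across all probe sets.

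The sequences of the mature strands show which precursors feed the same seed family. They are RefSeq entries in build GRCr8, written 5′ to 3′ with the seed (bases 2 to 8) in capitals. All 246 miRBase stem-loops matched a RefSeq gene by name. The first set belongs to the CREB target pair, which lies on chromosome 10 and shares the seed AACAGUC, and to the islet microRNAs.
miR-212-3p: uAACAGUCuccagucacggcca
miR-132-3p: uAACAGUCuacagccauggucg
miR-375-3p: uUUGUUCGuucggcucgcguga
miR-7a-5p: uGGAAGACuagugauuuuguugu
The miR-212 strand lies at chr10:60521811-60521832 and the miR-132 strand at chr10:60522091-60522112, both on the plus strand. The miR-375 strand lies at chr9:83906591-83906612 on the minus strand. The next sets are shown because their precursors had the largest miRBase differences at 16 h or had differences of opposite sign with a shared seed. The seed AAAGUGC is that of the miR-17 family, AGCAGCA that of the miR-15 and miR-16 family, and GCAGCAU that of miR-107 and miR-103.
miR-93-5p: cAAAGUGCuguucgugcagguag
miR-20b-5p: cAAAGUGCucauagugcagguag
miR-106b-5p: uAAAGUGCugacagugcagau
miR-15b-5p: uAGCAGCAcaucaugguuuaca
miR-16-5p: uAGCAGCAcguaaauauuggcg
miR-503-5p: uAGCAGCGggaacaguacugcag
miR-107-3p: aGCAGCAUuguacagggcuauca
miR-103-3p: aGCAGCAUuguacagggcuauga
miR-21-5p: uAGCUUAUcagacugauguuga
The stem-loops themselves are the targets of the probe sets, and 3 that the results turn on are printed with their mature strands in capitals. The mir-132 hairpin spans chr10:60522033-60522133 (plus strand), the mir-375 hairpin chr9:83906582-83906656 (minus strand) and the mir-344-1 hairpin chr1:124718754-124718851 (minus strand), all in GRCr8.
mir-132 hairpin: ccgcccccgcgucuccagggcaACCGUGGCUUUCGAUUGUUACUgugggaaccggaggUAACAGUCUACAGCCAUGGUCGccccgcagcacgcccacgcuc
mir-375 hairpin: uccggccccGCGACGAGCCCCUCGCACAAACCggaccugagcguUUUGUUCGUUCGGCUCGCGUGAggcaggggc
mir-344-1 hairpin: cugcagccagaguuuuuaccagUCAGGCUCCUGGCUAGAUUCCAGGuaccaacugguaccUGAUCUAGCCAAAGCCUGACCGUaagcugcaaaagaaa

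Most precursors gave signals within the range of the negative controls. The array marks 1153 probe sets as negative controls, and the upper quartile of their signals on each array is used here as the background level. What these controls contain is not given in the sources used here, and some are bright, with highest signals of 12.35 to 12.63, so above or below background means only a position relative to this level. It was 4.57 with forskolin at 2 h, 4.47 with vehicle at 2 h, 4.37 with forskolin at 16 h and 4.44 with vehicle at 16 h. The median precursor signal was 2.74, 2.70, 2.71 and 2.76 on the same arrays, below the negative control medians of 3.39, 3.22, 3.29 and 3.26. Precursors above the background level numbered 60 with forskolin at 2 h (16.9%), 61 with vehicle at 2 h (17.1%), 61 with forskolin at 16 h (17.1%) and 68 with vehicle at 16 h (19.1%). Of all 27661 probe sets that are no array controls, 43.0% to 45.3% were above it. On at least 1 array the level was passed by 74 of 356 precursors (20.8%), 54 of them on all 4 arrays, against 393 of 1153 negative controls (34.1%). The share of precursors past the level was thus below that of the negative controls. Ensembl entries passed in 32 of 110 cases (29.1%) and miRBase stem-loops in 42 of 246 (17.1%). Above the 95th percentile of the negative controls, 12 precursors remained, 10 of them Ensembl entries.

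**Figure D1:**
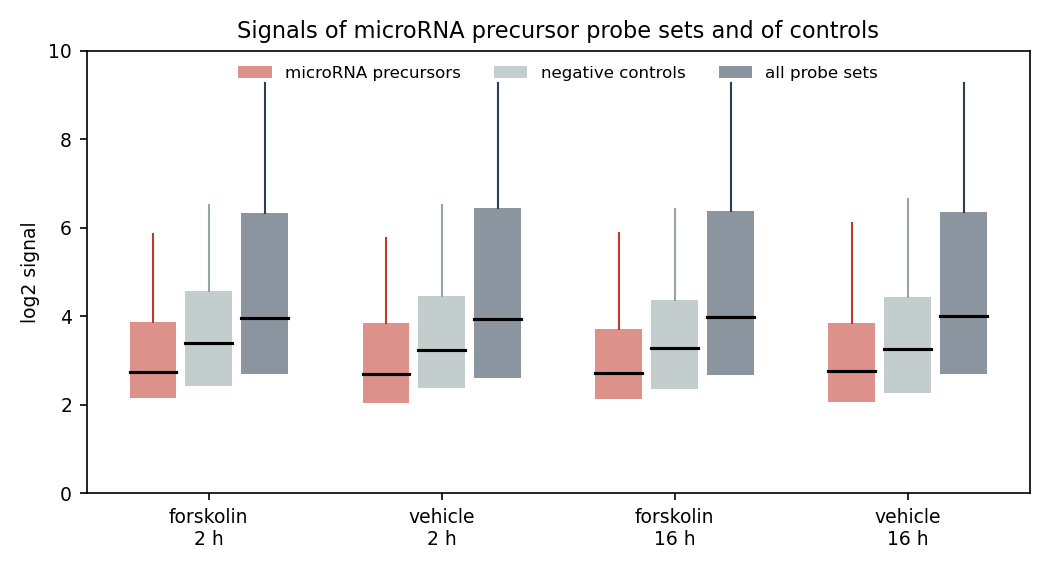
Log2 signals of the 356 microRNA precursors, the 1153 negative controls and all 27661 probe sets without array controls on each of the 4 arrays; boxes run between the quartiles, the black line is the median and the line above a box reaches the 95th percentile. The precursor medians of 2.70 to 2.76 lie below the negative control medians on every array.

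The brightest precursors were Ensembl entries and mir-207. The Ensembl entry at chr10:79683966-79684061 had log2 signals of 11.10 with forskolin and 11.26 with vehicle at 2 h, and 11.32 with forskolin and 11.33 with vehicle at 16 h. The entry at chr10:73239587-73239682 had 8.55 with forskolin and 8.75 with vehicle at 2 h, and 8.75 with forskolin and 8.89 with vehicle at 16 h. Among miRBase stem-loops, mir-207 was brightest, with 7.79 with forskolin and 7.76 with vehicle at 2 h, and 7.80 with forskolin and 7.91 with vehicle at 16 h. It lies within Dnaja1, a gene for an Hsp70 co-chaperone, on the same strand. The next miRBase stem-loop, mir-598, had 6.97 with forskolin and 7.16 with vehicle at 2 h, and 6.47 with forskolin and 7.21 with vehicle at 16 h. Its signal with forskolin at 16 h was the lowest of the 4, and the difference at that time was -0.74. For mir-183, near the median of the precursors, the signal was 2.60 on all 4 arrays. Signals exactly equal as deposited, with no tolerance, occurred on at least 2 arrays in 23 precursors (6.46%), against 3.65% of all probe sets.

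Few precursors differed by 2-fold or more between forskolin and vehicle. At 2 h, 1 precursor was at least 2-fold higher with forskolin and 2 were at least 2-fold lower, where 0.987% of all probe sets were higher and 0.669% lower by that much. At 16 h, 0 were at least 2-fold higher and 1 was lower, where 1.06% and 1.31% of all probe sets were. At 1.5-fold, 7 precursors were higher and 6 lower at 2 h, where 3.84% and 4.32% of all probe sets were, and 8 were higher and 16 lower at 16 h, where 4.2% and 4.82% were. The vehicle arrays, labelled as differing in time, gave numbers of the same order. With vehicle at 16 h against vehicle at 2 h, 2 precursors were at least 2-fold higher and 2 lower, where 0.354% and 0.0615% of all probe sets were, and at 1.5-fold 8 were higher and 5 lower, where 2.34% and 1.5% were. As shares of the 356 precursors, the 2-fold counts were 0.28% higher and 0.56% lower at 2 h and 0.28% lower at 16 h. Most precursors, 294 of 356, had a mean signal over the arrays below 4.46, the mean background level. Of all 15358 probe sets below that level, 0.36% were at least 2-fold higher and 0.25% lower at 2 h. At 16 h the shares were 0.42% and 0.69%, so the low precursor counts are near those of weak probe sets of every kind.

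The spread of the differences was also alike. Over the 356 precursors the forskolin minus vehicle difference had an SD of 0.284 log2 units at 2 h and 0.294 at 16 h, and the vehicle 16 h minus vehicle 2 h difference had an SD of 0.284. Over all probe sets the SDs were 0.364, 0.373 and 0.273. Over all probe sets with a mean signal below 4.46 they were 0.286, 0.307 and 0.264, close to those of the precursors. The median precursor difference was 0.08 at 2 h, with 221 of 356 above 0 (62.1%), and -0.03 at 16 h, with 157 above 0 (44.1%). Over all probe sets the medians were 0.02 and 0.00, with 52.1% and 49.3% above 0. Probe sets of every kind whose mean signal over the arrays was below the mean background level of 4.46 had a median difference of 0.07 at 2 h, with 61.6% above 0, close to that of the precursors. After cyclic loess normalization the median precursor difference at 2 h was 0.03, with 196 above 0 (55.1%), and after centring on probe sets above background it was 0.15, with 252 above 0 (70.8%). The 62 precursors with a mean signal above 4.46 had a median difference of 0.06 at 2 h with 61.3% above 0, and -0.13 at 16 h with 29.0% above 0. All 12303 probe sets above 4.46 had -0.07 with 40.2% above 0, and 0.00 with 50.4% above 0. Between the vehicle arrays, 16 h minus 2 h, the 62 precursors had a median of 0.27 with 85.5% above 0, against -0.05 with 41.5% above 0 for all probe sets above 4.46. The vehicle arrays thus had the largest of the 3 medians for these precursors, and the vehicle difference shares an array with each forskolin difference.

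**Figure D2:**
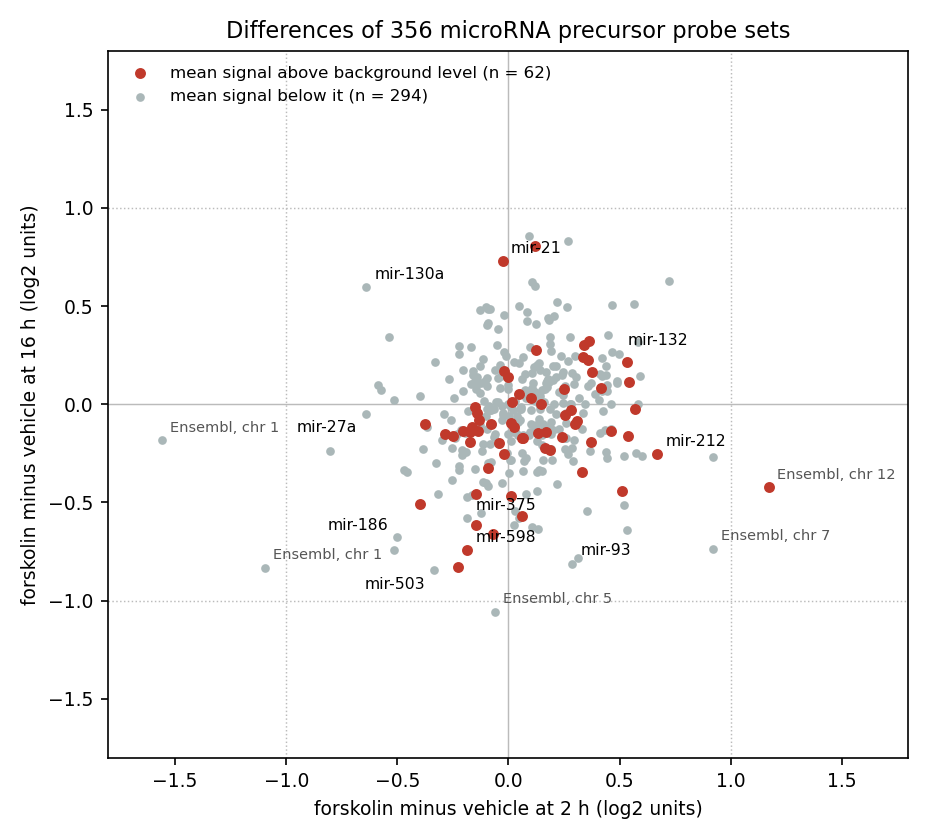
Forskolin minus vehicle differences in log2 signal at 2 h (horizontal axis) and at 16 h (vertical axis), 1 point per precursor, with the 62 precursors whose mean signal is above the mean background level in red; dotted lines mark 2-fold. Only 4 points lie beyond a dotted line, and each of them is an Ensembl entry.

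The 4 precursors at or beyond 2-fold were Ensembl entries. The entry at chr12:10270917-10270987 had 6.90 with forskolin and 5.73 with vehicle at 2 h, a difference of 1.17, and 6.43 with forskolin and 6.86 with vehicle at 16 h, a difference of -0.42. Its 2 h vehicle signal stood apart from the other 3 arrays. The entry at chr1:115856385-115856462 had 3.47 with forskolin and 5.03 with vehicle at 2 h, a difference of -1.56, and 3.55 with forskolin and 3.73 with vehicle at 16 h, a difference of -0.18. Here too the 2 h vehicle array alone was high, and it was the only array on which the entry was above background. The entry at chr1:115910446-115910523 had 2.51 with forskolin and 3.61 with vehicle at 2 h, and 1.53 with forskolin and 2.36 with vehicle at 16 h. It was lower with forskolin at both times, by -1.10 and -0.83, and was below background throughout. The entry at chr5:8868831-8868919 had 4.01 with forskolin and 4.07 with vehicle at 2 h, and 2.65 with forskolin and 3.71 with vehicle at 16 h. Only its 16 h forskolin signal was low, with a difference of -1.06, and all 4 signals were below background.

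Both chromosome 1 entries belong to a region that also holds mir-344-1, and its 5 probe sets were lower with forskolin at 2 h. The region was looked at because those entries were 2-fold lower at 2 h, so their own values are no support for it. Both mir-344-1 probe sets are of the same stem-loop. The third Ensembl entry, at chr1:115747549-115747626, had 2.11 with forskolin and 2.91 with vehicle at 2 h, and 2.37 with forskolin and 2.61 with vehicle at 16 h. One mir-344-1 probe set had 3.55 with forskolin and 4.12 with vehicle at 2 h, and 3.49 with forskolin and 3.41 with vehicle at 16 h. The other had 4.0 with forskolin and 4.59 with vehicle at 2 h, and 3.89 with forskolin and 3.79 with vehicle at 16 h. Only its 2 h vehicle signal was above background. In each of the 5 the 2 h vehicle array was the highest of the 4. The differences at 2 h ran between -1.56 and -0.57, and at 16 h between -0.83 and 0.10. The vehicle 16 h minus vehicle 2 h differences, which share the 2 h vehicle array with the differences at 2 h, ran between -1.30 and -0.31. What sets that array apart in this region was not tested. Among protein-coding neighbours, Ube3a, a ubiquitin ligase gene, had 7.91 with forskolin and 8.47 with vehicle at 2 h, a difference of -0.56, and -0.07 at 16 h. Snrpn, a splicing factor gene of the same imprinted region, differed by 0.08 at 2 h and 0.16 at 16 h, and Mkrn3, a ring finger gene there, by -0.11 and 0.09. Ndn differed by -0.06 at both times and Magel2 by 0.25 at 2 h and -0.39 at 16 h, and both were below background on every array.

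**Figure D3:**
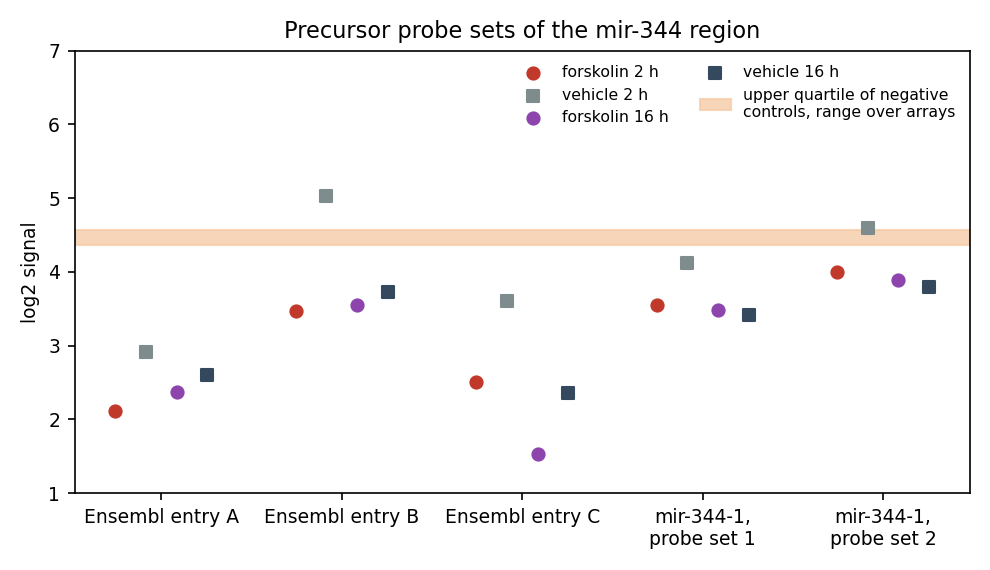
Log2 signals of the 5 precursor probe sets of the mir-344 region on each array, circles for forskolin and squares for vehicle, with the range of the background level over the arrays as a band; entries A, B and C are the Ensembl entries in order of position. The 2 h vehicle square is the highest mark in every probe set, at 2.91 to 5.03.

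The CREB target pair was higher with forskolin at 2 h by less than 2-fold. For mir-212 the signal was 4.98 with forskolin and 4.31 with vehicle at 2 h, and 4.38 with forskolin and 4.63 with vehicle at 16 h. The 2 h forskolin array was the highest, and the 2 h difference of 0.67 (1.59-fold) was the highest of any miRBase stem-loop, while the 16 h difference was -0.25. For mir-132 the signal was 3.79 with forskolin and 3.29 with vehicle at 2 h, and 3.68 with forskolin and 3.43 with vehicle at 16 h, with differences of 0.50 and 0.26. Both forskolin arrays were above both vehicle arrays for mir-132, but all 4 signals were below background. The 2 h vehicle signal of mir-212 was also below it. Among the 16 measured precursors with known cAMP, CREB or activity regulation, the median difference was 0.05 at 2 h with 10 above 0, and -0.02 at 16 h with 5 above 0, beside 0.02 and 0.00 over all probe sets. By 1.5-fold, 1 of the 16 was higher at 2 h (mir-212) and 1 at 16 h (mir-21), and none was lower, where 3.84% of all probe sets were higher at 2 h and 4.2% at 16 h. In this list mir-139, which lies within the cyclic nucleotide phosphodiesterase gene Pde2a, had 6.35 with forskolin and 6.29 with vehicle at 2 h, and 5.84 with forskolin and 6.41 with vehicle at 16 h, a difference of -0.57. Its host Pde2a differed by -0.15 at 2 h and -0.11 at 16 h.

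Like precursors in general, those of islet microRNAs were mostly below background. For mir-375 the signal was 3.89 with forskolin and 4.07 with vehicle at 2 h, and 3.57 with forskolin and 4.15 with vehicle at 16 h. All 4 values were below background, and the lowest was that with forskolin at 16 h, with a difference of -0.58 at 16 h and -0.19 at 2 h. For mir-7a-1, which makes an islet microRNA known for restraining insulin secretion in mouse, the signal was 5.31 with forskolin and 5.07 with vehicle at 2 h, and 4.83 with forskolin and 4.99 with vehicle at 16 h. It was above background on all 4 arrays and differed by 0.24 and -0.17. It lies on the same strand within Hnrnpk, whose signals were 11.95 to 12.21, and the array does not separate the hairpin from such a longer transcript. The second copy, mir-7a-2, had signals of 3.21 to 3.61 and differences of 0.07 and -0.34. Of 35 measured precursors in the islet list, 5 were above background on an array, beside 20.8% of all 356 precursors. In the list 0 differed by 1.5-fold or more at either time, where between 3.84% and 4.82% of all probe sets did in each direction. Over all 356 precursors these shares lay between 1.69% and 4.49%. Just short of 1.5-fold (0.585 log2 units) were mir-375 and mir-24-1 at 16 h, both at -0.58, and mir-195 at 2 h, at 0.57. The list had a median difference of 0.10 at 2 h with 24 above 0, and of -0.10 at 16 h with 12 above 0. Over all precursors 62.1% and 44.1% were above 0. The 3 mir-9, 3 mir-124, mir-96, mir-183, mir-184 and mir-204 precursors were below background on every array. Above it on all 4 arrays were mir-211, mir-200c, mir-338 and mir-7a-1. The fifth, mir-29c, of a family known for repressing the lactate transporter gene Slc16a1 in mouse beta cells, had 5.0 with forskolin and 4.49 with vehicle at 2 h, and 4.22 with forskolin and 4.66 with vehicle at 16 h. Its differences were 0.51 at 2 h and -0.44 at 16 h.

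**Figure D4:**
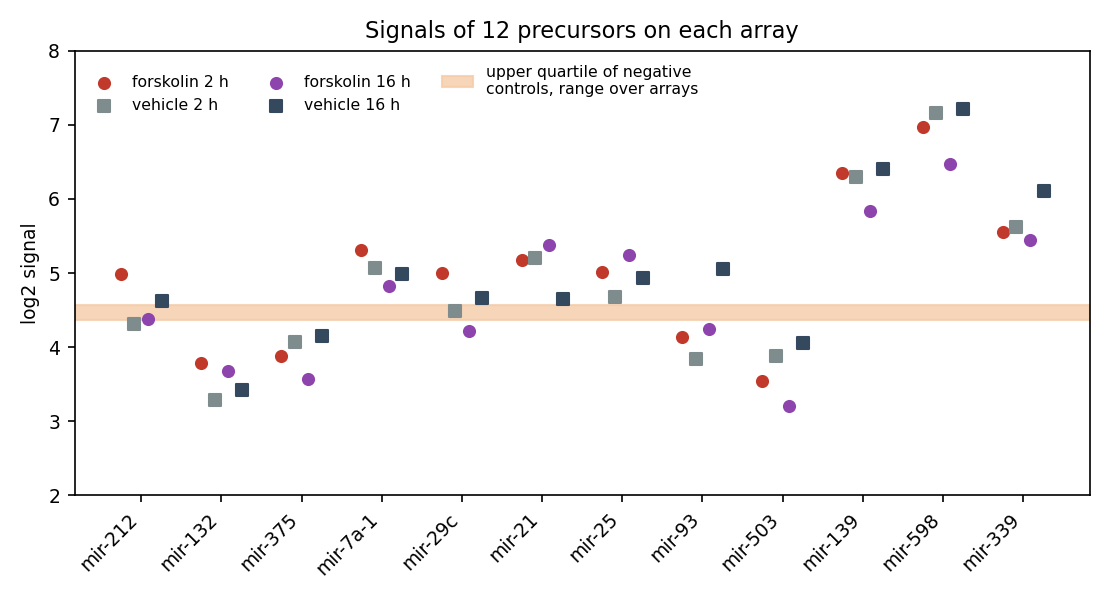
Log2 signals of 12 precursors on each array, circles for forskolin and squares for vehicle, with the range of the background level over the arrays as a band. The circle of mir-212 at 2 h (4.98) stands above its other 3 marks, and the 16 h vehicle square stands apart upward for mir-93 (5.05) and downward for mir-21 (4.65).

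Of 10 stress and inflammation precursors, 1 differed by over 1.5-fold, at 16 h, where 4.2% of all probe sets were higher and 4.82% lower. For mir-21, which is widely induced in inflammation and growth, the signal was 5.17 with forskolin and 5.20 with vehicle at 2 h, and 5.38 with forskolin and 4.65 with vehicle at 16 h. The 16 h difference was 0.73, and it was the 16 h vehicle array that stood below the other 3. For mir-210, a hypoxia-induced microRNA, the 4 signals lay between 5.56 and 5.66. The p53 target mir-34a and the NF-kappaB target mir-146a were below background on every array, with differences of -0.38 and 0.21 at 2 h and -0.23 and 0.20 at 16 h. Over the 10 measured members of this list, the median difference was 0.14 at 2 h and 0.06 at 16 h.

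Among precursors of cell cycle clusters, the 16 h forskolin signal was lower by 1.5-fold or more in 3 of 18, and 1 was higher by as much at 2 h. Over all probe sets, 4.82% were lower by as much at 16 h and 3.84% higher at 2 h. For mir-93 the signal was 4.13 with forskolin and 3.85 with vehicle at 2 h, and 4.24 with forskolin and 5.05 with vehicle at 16 h. Only the 16 h vehicle array was above background, and the 16 h difference was -0.81. For mir-503 the signal was 3.54 with forskolin and 3.88 with vehicle at 2 h, and 3.21 with forskolin and 4.06 with vehicle at 16 h, with differences of -0.34 and -0.84. For mir-20b the signal was 3.07 with forskolin and 2.76 with vehicle at 2 h, and 2.19 with forskolin and 2.97 with vehicle at 16 h, with differences of 0.31 and -0.78. Both mir-503 and mir-20b were below background on every array. The one past 1.5-fold at 2 h was mir-15b, with 4.02 with forskolin and 3.42 with vehicle, a difference of 0.60, and -0.26 at 16 h. Its neighbour mir-16 differed by -0.10 and -0.40. The list had a median difference of 0.10 at 2 h and -0.10 at 16 h. Above background on an array were 2 of its members, beside 20.8% of all precursors.

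Other miRBase stem-loops above background on an array gave differences below 2-fold. At 2 h the higher ones after mir-212 were mir-187, by 0.57, and mir-191, by 0.54. For mir-187 the signal was 4.92 with forskolin and 4.35 with vehicle at 2 h, and 4.65 with forskolin and 4.67 with vehicle at 16 h. For mir-191 it was 5.29 with forskolin and 4.75 with vehicle at 2 h, and 4.89 with forskolin and 5.05 with vehicle at 16 h. In both the 2 h vehicle signal was the lowest and the 2 h forskolin signal the highest. At 2 h only the forskolin signal of mir-187 was above background, as for mir-212. So mir-187 and mir-212 are ranked here at 2 h through the group in which they were high. On the lower side, mir-186 had 4.31 with forskolin and 4.82 with vehicle at 2 h, and 3.76 with forskolin and 4.44 with vehicle at 16 h. It lies within Zranb2, a splicing factor gene, which differed by -0.04 and 0.13, beside -0.50 and -0.67 for mir-186. Only the 2 h vehicle signal of mir-186 was above background, so it is among these precursors through a group in which it was high. For mir-328 the signal was 4.85 with forskolin and 5.25 with vehicle at 2 h, and 5.36 with forskolin and 5.87 with vehicle at 16 h. Its differences were -0.40 and -0.51, and both 16 h arrays were above both 2 h arrays. For mir-325 the signal was 4.81 with forskolin and 5.06 with vehicle at 2 h, and 3.78 with forskolin and 4.16 with vehicle at 16 h. It was above background at 2 h only, and the vehicle arrays differed by -0.90 (16 h minus 2 h), more than the forskolin differences of -0.25 and -0.38. At 16 h mir-150, known from lymphocytes, had 4.05 with forskolin and 4.67 with vehicle, a difference of -0.61. Only that vehicle signal was above background, so mir-150 too is named through the group in which it was high.

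Precursors that share a transcript or a seed had differences of either sign. The genes of mir-25, mir-93 and mir-106b lie within Mcm7, a replication helicase gene. At 16 h, mir-25 differed by 0.30, mir-93 by -0.81 and mir-106b by 0.46, while Mcm7 differed by -0.70. At 2 h they differed by 0.34, 0.29 and -0.02, and Mcm7 by -0.46. The mir-25 signal was above background on all 4 arrays, that of mir-93 with vehicle at 16 h only, and that of mir-106b on no array. The 6 measured precursors with the miR-17 family seed AAAGUGC had differences between -0.81 and 0.46 at 16 h. The 5 with the seed AGCAGCA ran between -0.40 and 0.11 at 16 h and had a median of 0.49 at 2 h with 3 above 0, and all were below background. The seed pair mir-107 and mir-103-2, both within pantothenate kinase genes, had differences of opposite sign at both times. For mir-107 the signal was 3.4 with forskolin and 2.83 with vehicle at 2 h, and 3.57 with forskolin and 3.06 with vehicle at 16 h. For mir-103-2 the signal was 3.8 with forskolin and 4.31 with vehicle at 2 h, and 3.27 with forskolin and 4.01 with vehicle at 16 h. Both forskolin arrays were thus above both vehicle arrays for mir-107 and below both for mir-103-2, and all 8 signals were below background. A further copy, mir-103-1, whose hairpin holds the same miR-103 strand, differed by -0.20 and 0.07, unlike mir-103-2 at 16 h. The differences between these precursors were not tested.

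Precursors within 10 kb of each other on the same strand formed 43 clusters with 139 members. The largest, from mir-379 to mir-410 on chromosome 6, is part of an imprinted region, and 1 of its 27 members was above background on an array. Its median difference was 0.08 at 2 h, between -0.25 and 0.42, and -0.03 at 16 h, between -0.56 and 0.62. The nearby cluster from mir-770 to mir-136 had 9 members, with a median of 0.11 at 2 h and -0.14 at 16 h. The mir-17-1 to mir-19b-1 cluster on chromosome 15, known for promoting proliferation, had 5 members below background, with a median of 0.14 at 2 h and 0.03 at 16 h. The 11 let-7 family precursors with the seed GAGGUAG had a median of 0.14 at 2 h and -0.08 at 16 h, and only let-7d was above background, with 5.88 with forskolin and 6.03 with vehicle at 2 h, and 5.87 with forskolin and 6.33 with vehicle at 16 h. The 11 measured precursors of muscle and other tissues were all below background on every array, with medians of -0.02 and 0.13. Over all 356 precursors, 20.8% were above background on an array.

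Of the miRBase stem-loops, 66 lie within a measured host gene on the same strand. Across these 66, the precursor and host differences had a Pearson coefficient of -0.04 at 2 h and 0.25 at 16 h, with the same sign in 29 and 36. Members that share a host share its value, and most precursors here were below background. Where precursor and host were both above background on an array, 13 remained, with the same sign in 5 at 2 h and 6 at 16 h. One of these, mir-339, lies within C12h7orf50. It had 5.55 with forskolin and 5.62 with vehicle at 2 h, and 5.44 with forskolin and 6.10 with vehicle at 16 h. The 16 h vehicle array was the highest, and the difference of -0.66 stood beside -0.65 for the host. The chloride channel gene Clcn5 was higher with forskolin at 2 h by 1.24, whereas its 4 precursors mir-532, mir-188, mir-501 and mir-500 differed by 0.00 to 0.46 and were below background.

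Most genes that make and use microRNAs were measured above background. Of 30 listed genes, 26 were measured, 23 were above background on an array (not Lin28a, Lin28b and Mov10), and 0 differed by 2-fold at either time. Over all probe sets, 0.987% were higher and 0.669% lower by that much at 2 h, and 1.06% and 1.31% at 16 h. The median difference of the listed genes was -0.11 at 2 h, with 9 of 26 above 0. At 16 h it was -0.12, with 6 above 0, beside 0.02 and 0.00 over all probe sets at the 2 times. All probe sets with a mean signal above background had medians of -0.07 and 0.00, with 40.2% and 50.4% above 0. Ago2, which encodes the Argonaute that cuts target RNA, had 9.09 with forskolin and 8.33 with vehicle at 2 h, and 8.46 with forskolin and 7.82 with vehicle at 16 h. It was higher with forskolin at both times, by 0.76 and 0.64. None of the other Argonaute genes was higher with forskolin at both times. Ago1 differed by -0.33 and -0.51, Ago3 by 0.33 and -0.01, and Ago4, above background on 2 arrays, by -0.46 and -0.65. Tut4, the uridylyltransferase that tags let-7 precursors, had 6.77 with forskolin and 6.77 with vehicle at 2 h, and 5.66 with forskolin and 6.51 with vehicle at 16 h, a difference of -0.86. The core processing genes differed by less than Ago2 at both times. Drosha differed by -0.33 and 0.05, Dgcr8 by -0.29 and -0.08, Xpo5 by -0.42 and -0.20, and Dicer1 by -0.29 and -0.03. Between the vehicle arrays, 16 h minus 2 h, these genes differed by -0.34, -0.28, -0.31 and -0.42 in that order. That difference shares the 2 h vehicle array with the differences at 2 h.

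Both times together allow 1 test, a linear model (limma) that adds a treatment effect and a time effect over all 27661 probe sets. An effect common to both times is compared with a spread taken only in part from its own disagreement between them. Most of that spread is borrowed from the other probe sets, with 4.66 prior degrees of freedom beside 1 residual degree. No precursor was called: 0 of 356 were higher and 0 lower at an adjusted p below 0.05, where 0.00362% of all probe sets were higher and 0.00723% lower. At an unadjusted p below 0.05, 14 precursors were higher and 7 lower, 5.90% of the 356, against 8.41% of all probe sets. The balance turned under other settings, with 6 higher and 9 lower without a trend in the prior, 7 and 15 after cyclic loess, and 0 and 2 among probe sets above background. The smallest adjusted p of a precursor in limma was 0.238, for the Ensembl entry at chr1:115910446-115910523, with a mean difference of -0.96 ± 0.14 (SE). For mir-212 the mean difference was 0.21 ± 0.27 and for mir-132 it was 0.38 ± 0.18, with adjusted p in limma of 0.864 and 0.624. With 1 residual degree of freedom the test can miss changes of 2-fold, and an effect at a single time enters it only in part.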

How the data were processed

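Total RNA from INS-1 cells was measured on 4 arrays, 1 in each of the groups. The authors deposited gene-level RMA values in log2 units, per the file headers. The submitters' processing notes name the Affymetrix Expression Console, version 1.1.1. RMA subtracts background, puts the arrays on a common distribution and combines the probes of a set, and makes differences between weak signals small. The series value table differed from these by at most 5e-05.

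Computed here were forskolin minus vehicle differences, counts at 2-fold, the share above the upper quartile of the negative controls, and the limma 3.58.1 fit (R 4.3.3, eBayes with a trend, Benjamini-Hochberg adjustment). Tables were handled in Python 3.11.15 with pandas 2.3.3. On simulated data over 27661 probe sets the fit recovered 0 of 50 probe sets changed by 0.5 log2 units, 10 of 50 by 1, 49 of 50 by 2 and 50 of 50 by 3, with 6 false calls.

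Members and lists were chosen with earlier results of these data known. Named precursors are those at 2-fold, the 10 highest and 10 lowest differences at each time among those above background, and the 10 brightest. Further ones come from 20 well-studied names, of which mir-182 was not found on the array, and from the lists and clusters. The seed pair mir-107 and mir-103-2, mir-503, mir-20b, the hosts and the mir-344 region with its neighbouring genes were singled out after values were seen. Sequences and gene positions in GRCr8 are from RefSeq; other positions are in RGSC3.4. Nothing states that cultures were replicated. Array precision is limited by the number of arrays.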

Additional observations from a re-analysis of the deposited data

Results flagged for a closer look

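In 4 precursors the forskolin minus vehicle difference was at least 0.5 log2 units in opposite directions at the 2 times. These differences between the times were not tested, and all 4 precursors were below background on every array. For mir-130a the difference was 0.60 at 16 h and -0.64 at 2 h, 1.24 apart. For the Ensembl entry at chr4:12835649-12835723 it was -0.51 at 16 h and 0.52 at 2 h, a change of -1.03. For the entry at chr5:144058960-144059065 it was -0.64 at 16 h and 0.53 at 2 h, a change of -1.17. For the entry at chr7:135934888-135934966 it was -0.74 at 16 h and 0.92 at 2 h, a change of -1.65.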

How the results depend on the processing

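No paired analysis was possible because each group has 1 array, and for the same reason no array could be left out. At 1.5-fold in place of 2-fold, 7 precursors were higher and 6 lower at 2 h, and 8 higher and 16 lower at 16 h. Only among precursors above background on an array of that time, 1 was 2-fold lower at 2 h and 0 at 16 h, since fewer were counted. The 1 left at 2 h, at chr1:115856385-115856462, passed only through the vehicle array on which it was high, so it is no support. With the 95th percentile of the negative controls as background, 12 were above it. The 2-fold counts did not move under cyclic loess, centring on probe sets above background, counting every probe set or the series value table. In limma 0 precursors were called with probe sets above background only, without a trend, after cyclic loess or from the series value table, and over these settings the smallest adjusted p of a precursor lay between 0.123 and 0.418. Of 122 named differences, 0 moved by as much as the vehicle difference SD of 0.284 under cyclic loess or centring. That count could not be otherwise, as precursors shifted by at most 0.115 under cyclic loess and centring moved them by 0.066 at 2 h. Signs near 0 flipped in 5 under cyclic loess and 4 under centring. Most precursors lie at background, which limits every difference.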
